A study of Canis lupus familiaris with 18 samples.

Results

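A group of 66 genes was read at high levels in the canine primary endothelial cells (CaPECs) of vena cava samples 1 and 3, and at far lower levels in the 7 other CaPEC samples. The genes were taken from the 24580 gene identifiers of the count table, with levels in CPM (the count of a gene divided by the total count of its sample, times 1000000). In the lower of these 2 cultures a gene had to reach at least 5 CPM and at least 4 times the highest of the other 7 CaPEC samples, a rule that 93 genes met. A further condition, that the mean of aortic vascular smooth muscle cells (VSMCs) plus 1 CPM was within 1.5-fold of the mean of venous VSMCs plus 1 CPM, removed 27 genes and left 66. Genes with at least 5 CPM in every CaPEC sample and under 2 CPM in every VSMC sample were also to be left out, but 0 genes were removed by this. The high level in the 2 cultures is therefore how the genes were chosen, and it is given as a description without a test. The study grew CaPECs and VSMCs out of the aorta, vena porta, and abdominal vena cava of 3 healthy male dogs about 1 year old, giving 18 samples in 6 groups of 3. The study describes no genetic change or drug treatment of the cells, and all were unsorted primary cultures at passage 3. The vessels were left over from dogs that had served in separate pacemaker research.

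Endothelial cells are the innermost layer of a vessel and control what passes between blood and tissue, while smooth muscle cells form the layer around them and set the width of the vessel by contracting. CaPECs were freed by a short enzyme digestion of the inverted vessel, and VSMCs by a longer digestion of the minced wall that was left. CaPECs were grown on gelatin in an endothelial growth medium and VSMCs in a serum-containing medium, so that cell type and medium cannot be told apart. In a culture that was not sorted, RNA from a small number of other cells is read together with that of the main cell type. In such bulk samples, fewer cells of a type and less RNA per cell cannot be told apart. The table lists genes by Ensembl identifier without symbols, so the known function of the genes is not given here, and the marker genes of endothelial, smooth muscle, and other cell types could not be looked up. Identifiers are printed for the few genes that a rule selected.

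The total count per sample was 6020932 to 13422177 in CaPECs and 7341227 to 15746769 in VSMCs. It was 7602808 in vena cava culture 1 and 9858752 in vena cava culture 3, inside the range of the other CaPECs, and the lowest count of any of the 66 genes in these cultures was 45. In place of known markers, the labelled cell type was checked with genes that parted the cell types in the aorta and vena porta samples alone. These genes had at least 5 CPM in all 6 samples of one cell type and under 2 CPM in all 6 of the other. Of the 25 genes that were high in CaPECs, 24 had at least 5 CPM in the CaPECs of vena cava 2, 12 in vena cava 1, and 15 in vena cava 3. The median gene of this list was at 98.9% of the mean aorta and vena porta CaPEC level in vena cava 2, but at 12.7% in vena cava 1 and 23.3% in vena cava 3. Among the VSMCs of the vena cava it was at 0.526% to 2.72%.

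The other list held 18 genes that were high in VSMCs. The 2 of these that belong to the 66 genes were left out, since the rule used their levels in the cultures, which left 16. The median gene of the 16 was at 3.01% of the VSMC level in the CaPECs of vena cava 1 and at 10.4% in those of vena cava 3. It was at 2.03% in vena cava 2 and at 0% to 3.31% in the aorta and vena porta CaPECs, so that vena cava 1 lay within their range. The list held these aorta and vena porta CaPECs under 2 CPM, a limit that the vena cava samples did not have. The summed level of the 16 genes was 38.5 CPM in vena cava 1, 41.5 CPM in vena cava 3, 21.5 CPM in vena cava 2, 4.37 to 12.1 CPM in the other CaPECs, and 450 to 539 CPM in VSMCs. With the other 2 genes it was 81.7 and 75.6 CPM in the 2 cultures and 23.8 CPM in vena cava 2. The list of genes high in CaPECs contained 0 of the 66 genes. In that list the libraries labelled CaPEC from vena cava 1 and 3 stood apart from vena cava 2. The list required a high level in every aorta and vena porta CaPEC sample, so the distance from those is partly built in. Both lists were drawn up after the data were seen and are a description, and their part in the levels of the 66 genes was not tested.

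**Figure D1:**
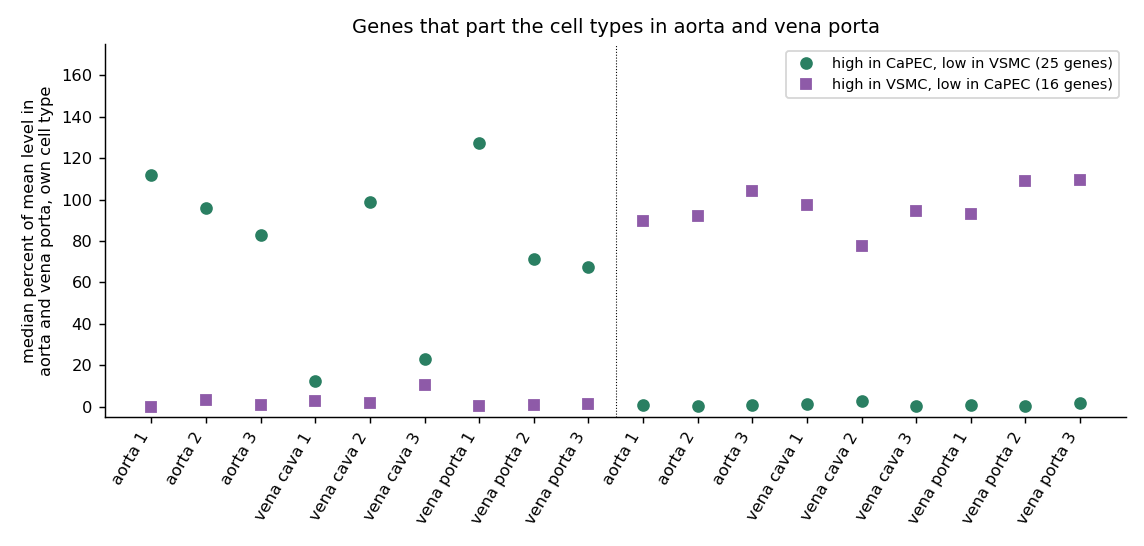
For each of the 18 samples on the x axis, the y axis gives the median gene of 2 gene lists as a percent of its mean level in the aorta and vena porta samples of the cell type where it is high (circles, 25 genes high in CaPECs; squares, 16 genes high in VSMCs). CaPECs are left of the dotted line and VSMCs right of it, and vena cava 1 and 3 are the CaPEC samples in which the circles fall to 12.7% and 23.3%.

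In the lower of the 2 cultures, the 66 genes had between 5.58 and 2733 CPM, with a median of 32.3 CPM. The lower culture exceeded the highest other CaPEC sample 4.01-fold to 26.7-fold, with a median of 6.80-fold. Just inside the threshold, a gene at 19.1 CPM against 4.76 CPM in aorta 3 had a 4.01-fold difference. Just outside it, 2 genes with 91.0 against 23.7 CPM and 33.8 against 8.803 CPM reached 3.84-fold and were not included. The 66 genes together made up 0.743% of all counts in vena cava 1 and 0.795% in vena cava 3, compared with 0.0312% in vena cava 2. A single gene held a large part of these counts, with 2733 CPM in vena cava 1 and 4105 CPM in vena cava 3. It was also abundant elsewhere, with 140.3 to 655.1 CPM in the other CaPECs and 540.8 to 1162 CPM in VSMCs (median 843.2 CPM). Without it, the remaining 65 genes summed to 4694 and 3841 CPM in the 2 cultures, to between 67.8 and 519 CPM in the other CaPECs, and to between 1092 and 2001 CPM in VSMCs.

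The 2 cultures did not hold the genes at one common ratio. Of the 66 genes, 45 were higher in vena cava 1 and 21 in vena cava 3, and the median log2 ratio of vena cava 3 to vena cava 1 was -0.31. The ratio lay within 2-fold for 55 genes, while 10 genes were more than 2-fold higher in vena cava 1 and 1 gene was more than 2-fold higher in vena cava 3. Log2 ratios ranged from -3.17 to 1.87. Among all 9110 genes with at least 5 CPM in both cultures, 95% lay within 2-fold. With 1 library per culture, these ratios have no replicate error.

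**Figure D2:**
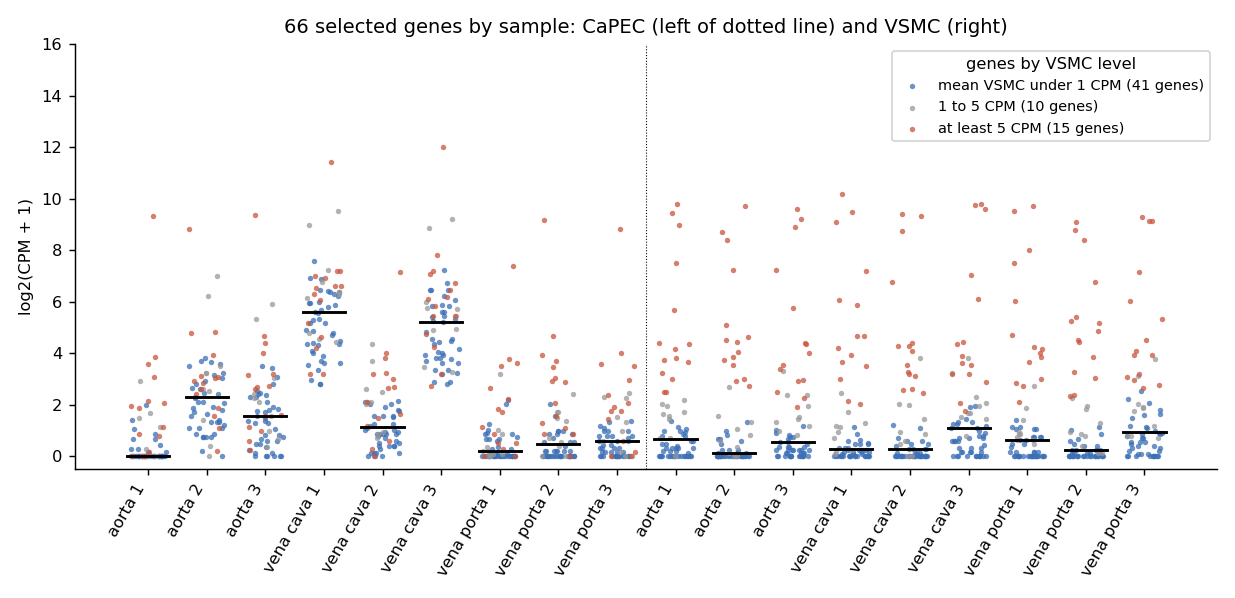
Each point is 1 of the 66 genes, with its level as log2(CPM + 1) on the y axis and the 18 samples on the x axis (CaPECs left of the dotted line, VSMCs right). Colours give the mean VSMC level of the gene and black lines the median gene, which is at 47.4 and 36.6 CPM in vena cava 1 and 3 and at 3.90 CPM or below in every other sample.

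The genes were next compared with their levels in VSMCs, which the rule used for the ratio of aorta to veins and for the exclusion that removed 0 genes. Most of them were hardly read in VSMCs. The mean over the 9 VSMC samples was under 1 CPM for 41 of the 66 genes (62.1%), between 1 and 5 CPM for 10 genes, and at least 5 CPM for 15 genes. Of all 9110 genes with at least 5 CPM in both cultures, 1.3% had a mean VSMC level under 1 CPM. The median gene of the 66 had 44.9 CPM as a mean of the 2 cultures and 0.629 CPM as a mean of VSMCs, whereas the median of the 9110 genes was 37.0 CPM in the cultures and 27.6 CPM in VSMCs. The choice of genes bears on this share, since genes that are low in other CaPECs were chosen and a gene near 0 in VSMCs meets the ratio condition almost by construction. Before that condition was applied, 45 of the 93 genes were under 1 CPM in VSMCs.

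In 58 of the 66 genes, both cultures lay above all 9 VSMC samples, in 2 genes both lay below all of them, and in 6 genes the ranges overlapped. Over the 9110 genes, 38.5% lay above and 4.65% below. As the genes were chosen for high levels in these cultures, nothing is read from the first share. No count was found in any VSMC sample for 5 of the genes, which had 12.1 to 46.7 CPM in the 2 cultures. With 95602509 counts over the 9 VSMC samples, 3 counts correspond to 0.0314 CPM, so that the lower culture was at least 386-fold to at least 1371-fold higher than the VSMCs for these 5 genes. These limits cover counting error only.

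**Figure D3:**
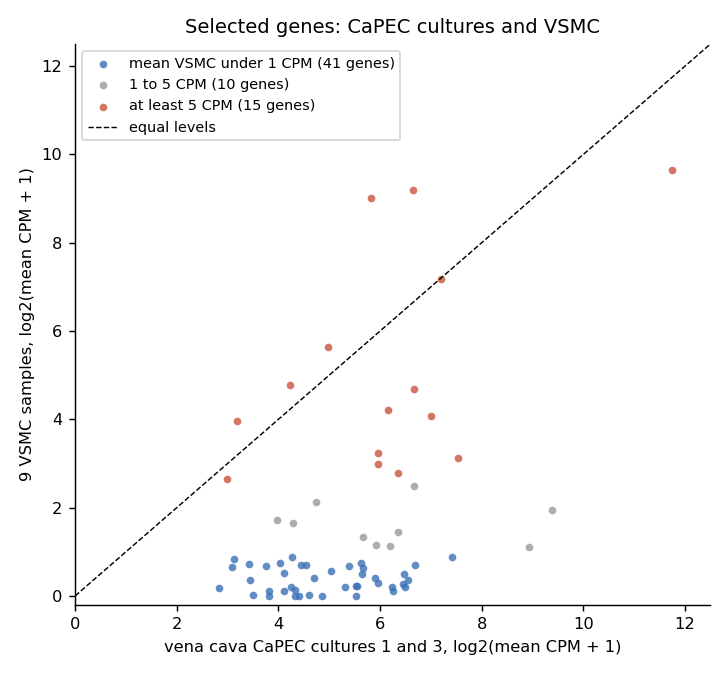
Each point is 1 of the 66 genes, with log2(mean CPM + 1) of vena cava CaPEC cultures 1 and 3 on the x axis and of the 9 VSMC samples on the y axis. Most points lie near 0 on the y axis (41 genes with a mean under 1 CPM), and 2 genes lie far above the dashed line of equal levels.

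ENSCAFG00000008433 had the largest fold, 26.7, of the lower culture over the highest other CaPEC sample. It was at 27.9 CPM in vena cava 1 and 22.4 CPM in vena cava 3. In the 7 other CaPECs it ranged from 0 to 0.839 CPM, with the highest level in vena cava 2. In VSMCs it had a lowest and median level of 0 CPM and a highest level of 1.63 CPM, in vena porta 1. The second largest fold was that of ENSCAFG00000000869, with 9.08 and 5.98 CPM in the 2 cultures and 0 to 0.315 CPM in the other CaPECs. Its VSMC samples ranged from 0 to 1.22 CPM, with a median of 0.620 CPM. In both genes the 2 cultures were clear of every other sample of either cell type.

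The genes with the highest VSMC level relative to the cultures showed another order. ENSCAFG00000018761 was at 23.8 CPM in vena cava 1, 87.1 CPM in vena cava 3, and 1.26 CPM in vena cava 2. Its other CaPEC samples were at 0.827, 4.32, and 1.19 CPM in aorta 1 to 3 and at 0.820, 0.810, and 1.75 CPM in vena porta 1 to 3. VSMCs had 518.6 ± 170.0 CPM (SD, n = 9), with a lowest sample at 256.0 and a highest at 773.0 CPM, and thus all lay above the cultures. ENSCAFG00000018825 was at 127.3 and 71.9 CPM in the cultures, at 1.18 to 15.2 CPM in the other CaPECs, and at 582.3 ± 165.6 CPM in VSMCs (SD, n = 9), the lowest at 332.6 CPM. These are the 2 genes in which both cultures lay below every VSMC sample.

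At the other end, ENSCAFG00000020413 and ENSCAFG00000011740 had the lowest VSMC level relative to the cultures. ENSCAFG00000020413 was at 501.3 CPM in vena cava 1, 469.4 CPM in vena cava 3, and 12.0 CPM in vena cava 2. In the aorta it was at 0, 73.2, and 39.2 CPM in samples 1 to 3, and in the vena porta at 0.820, 0.486, and 1.87 CPM. VSMCs had between 0 and 3.97 CPM, with a median of 0.409 CPM. The levels thus fell from the 2 cultures to aorta 2 and 3 and then to vena cava 2, with the other CaPECs and the VSMCs close to 0.

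ENSCAFG00000011740 followed the same order. It was at 742.6 and 597.1 CPM in vena cava 1 and 3, at 126.9 and 59.1 CPM in aorta 2 and 3, and at 19.5 CPM in vena cava 2. The remaining CaPECs were at 2.24 CPM in aorta 1 and 3.998 to 8.12 CPM in the vena porta. In VSMCs the levels were 8.45 CPM in vena cava 3, 7.59 CPM in vena porta 3, 3.62 CPM in aorta 1, and 2.72 CPM or less in the other 6 samples.

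**Figure D4:**
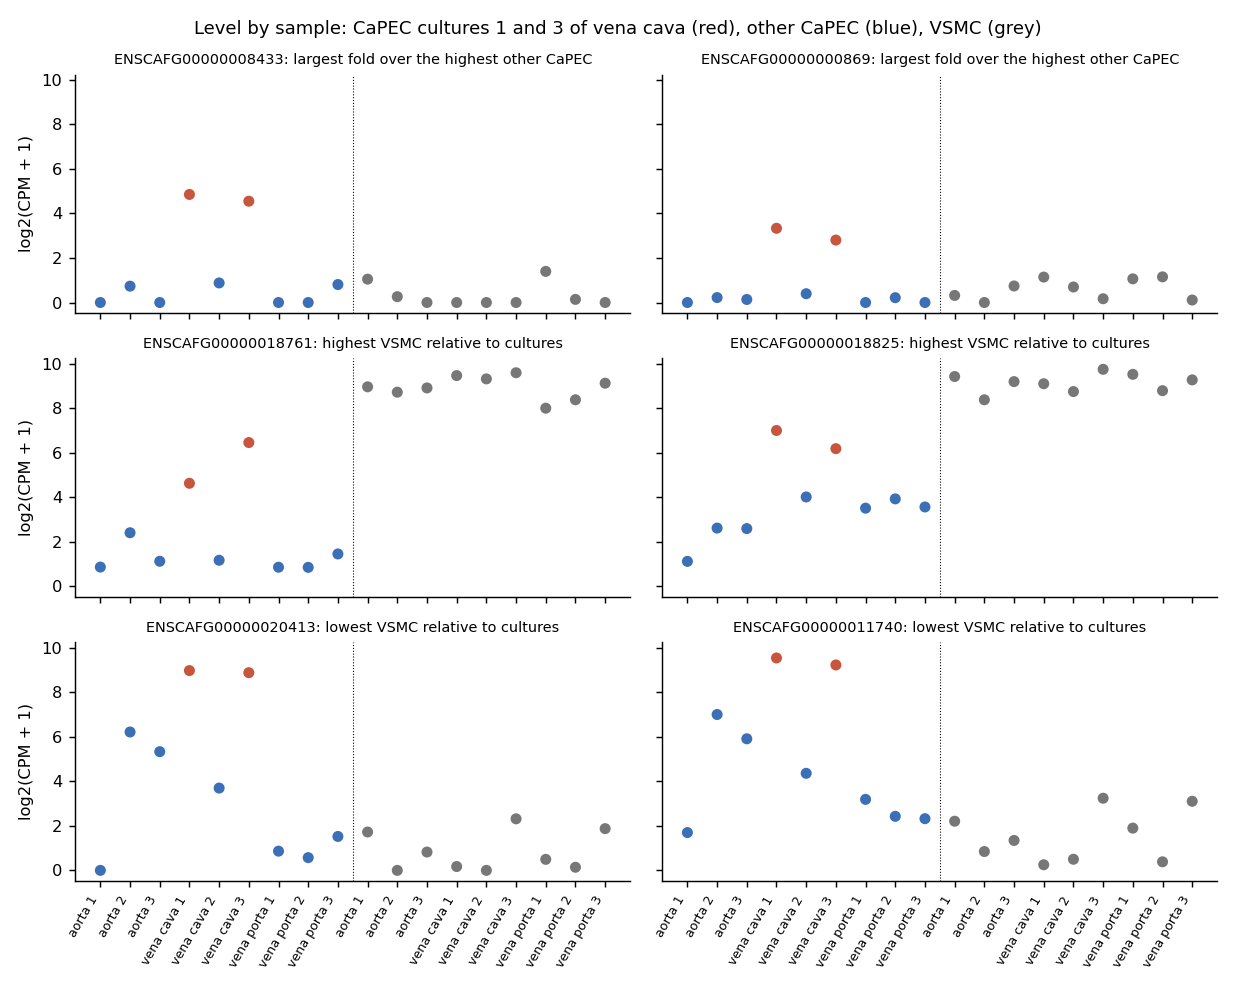
The y axes give log2(CPM + 1) for 6 genes over the 18 samples on the x axes, with vena cava CaPEC cultures 1 and 3 in red, other CaPECs in blue, and VSMCs in grey. VSMCs lie above the cultures in the 2 middle panels and at 8.45 CPM or below in the other panels, and aorta 2 and 3 are the next highest CaPECs in the 2 bottom panels.

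Of the 15 genes with at least 5 CPM in VSMCs (5.27 to 798.0 CPM as a mean), 8 were higher in both cultures than in any VSMC sample, with the mean of the cultures 3.97-fold to 23.8-fold that of the VSMCs. In 5 of the 15 the cultures overlapped the VSMC range, and the other 2 are those that lay below it. The VSMC samples were also compared with the CaPECs of aorta and vena porta. In 9 of the 66 genes all 9 VSMC samples lay above all 6 of these CaPECs, and in 0 genes they lay below. Over the 9110 genes, these shares were 5.03% and 16.4%. In 7 of the 9 genes the cultures were within or below the VSMC range. The rule sets an upper limit on these CaPEC levels, so both counts are given without a test.

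Among the 7 other CaPEC samples, the levels of the 66 genes were as follows. Aorta 2 was the highest of the 7 in 44 genes, aorta 3 and vena cava 2 in 9 genes each, and aorta 1 and each vena porta sample in 1 gene each. Aorta 2 and 3 both lay above the remaining 5 samples in 32 of the 66 genes (48.5%), while 4.79% of the 9110 genes showed this order. The rule used and capped the levels of these 7 samples, which it did not do for the 9110 genes, so that the order is a description and nothing is read from the difference in shares. Aorta 2 was above aorta 1 in 61 genes, aorta 3 was above aorta 1 in 57 genes, and aorta 2 was above aorta 3 in 54 genes. In aorta 1, 38 genes had no count, compared with 2 in aorta 2, 6 in aorta 3, 4 in vena cava 2, and 19 to 26 in the vena porta samples. The total count of aorta 2, 6020932, was the lowest of all samples.

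The CaPECs of vena cava 2 lay between these samples. They were above all 3 vena porta CaPECs in 41 genes and above aorta 1 in 53 genes, but above all 6 aorta and vena porta samples in 9. The order of the CaPEC samples by the median of the 66 genes was vena cava 1 (47.4 CPM), vena cava 3 (36.6 CPM), aorta 2 (3.90 CPM), aorta 3 (1.98 CPM), vena cava 2 (1.21 CPM), vena porta 3 (0.500 CPM), vena porta 2 (0.405 CPM), vena porta 1 (0.149 CPM), and aorta 1 (0 CPM). The order is a description of single libraries, and no neighbours in it were tested against each other.

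For the 41 genes under 1 CPM in VSMCs, the level in each sample was expressed as a percent of the mean of the 2 cultures. The rule limits this value in the other CaPECs to at most 25% of the lower culture. In aorta 2 the median gene was at 9.27%, with an interquartile range of 7.02% to 11.9%. In aorta 3 it was at 5.19% (1.597% to 8.69%) and in vena cava 2 at 2.63% (1.38% to 4.01%). Aorta 1 and vena porta 1 and 2 had a median of 0%, and vena porta 3 of 0.491%. Over the 9110 genes, the median gene in the 7 other CaPECs was at 84.7% to 95.8% of the culture level.

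Small amounts of the same 41 genes were also read in some VSMC samples. Their summed level was 33.7 CPM in VSMCs of vena porta 3 and 25.5 CPM in those of vena cava 3, and between 6.28 and 13.0 CPM in the other 7 VSMC samples. In the 2 cultures it was 1830 and 1453 CPM, in aorta 2 it was 161 CPM, and in aorta 1 8.74 CPM. Vena cava 3 was the highest of the 3 vena cava VSMC samples in 26 of the 41 genes (63.4%), and vena porta 3 the highest of the vena porta VSMC samples in 23 (56.1%). Among all genes with counts in VSMCs and a mean under 1 CPM there, these shares were 19.8% and 26%. Those genes were not matched to the 41 in level, and each share compares single libraries. The shares are thus a description, and nothing is read from their difference. The labels do not tie a replicate number in VSMCs to the same number in CaPECs.

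**Figure D5:**
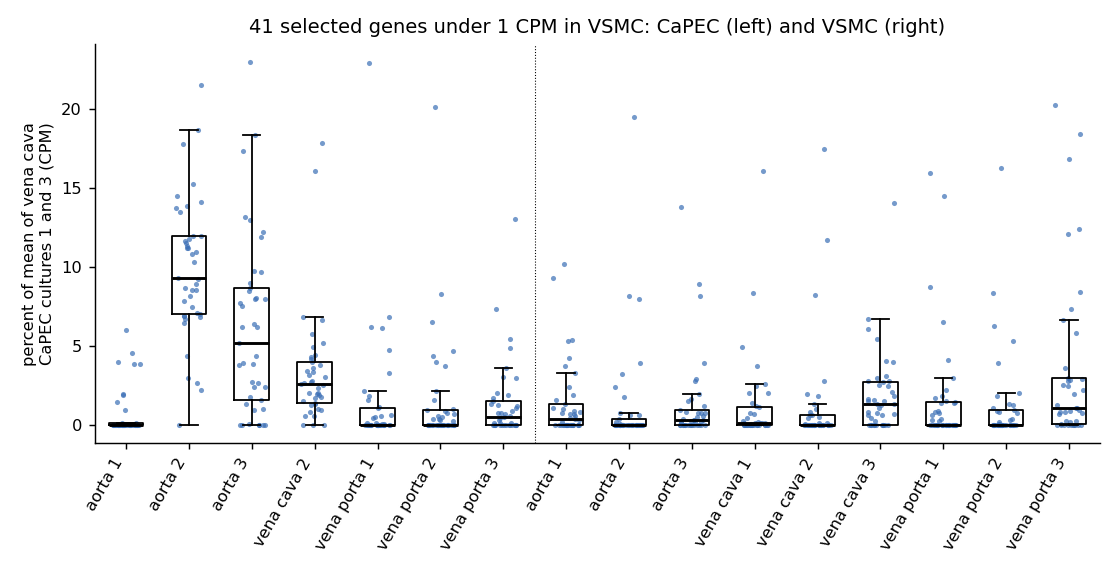
For the 41 genes with a mean under 1 CPM in VSMCs, the y axis gives the level as a percent of the mean of vena cava CaPEC cultures 1 and 3, and the x axis the 7 other CaPECs (left of the dotted line) and 9 VSMC samples. Points are genes, boxes the quartiles with the median, and whiskers reach 1.5 interquartile ranges; the medians are 9.27% in aorta 2, 5.19% in aorta 3, and 2.63% in vena cava 2.

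Differences between vessels and between replicate numbers, which the rule did not compare in this way, were tested with the quasi-likelihood test of edgeR, with p-values adjusted after Benjamini and Hochberg over every gene that passed a filter on low counts. A gene can pass this filter through the samples in which it is high, so that the number of the 66 genes tested, and the share of them below a p-value, are a description. The tests in CaPECs used the aorta and vena porta samples, whose levels the rule had capped relative to the 2 cultures. Between VSMCs from the vena cava and from the vena porta, 27 of the 66 genes could be tested and 0 had an adjusted p-value below 0.05 with a log2 fold change above 0.4 in either direction, against 0.00871% of all 11484 genes. Before adjustment, 4 of the 27 (14.8%) had a p-value below 0.05, against 5.19% of all genes. In a fit that blocked on the replicate number, 1 of the 27 and 57 of all 11484 genes were called. The gene was ENSCAFG00000031497, named after its values were seen, which had 17.3, 18.7, and 20.9 CPM in vena cava VSMCs 1 to 3 and 25.2, 37.5, and 39.7 CPM in vena porta VSMCs 1 to 3, without overlap. Its log2 fold change of vena cava over vena porta was -0.90 ± 0.16 (SE), with an edgeR adjusted p of 0.0379 with the block and 0.26 without it, and 0.00666 to 0.998 over all alternatives. DESeq2's Wald test called 2 of the 27, and 68 of all 11484 genes. The other 39 genes did not pass the filter, and 5 of them had no count in VSMCs. Without the filter 61 of the 66 genes were tested, of which 0 were called and 9 had an unadjusted p-value below 0.05, against 726 of all 15964 genes.

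Between CaPECs from the aorta and from the vena porta, in a fit without the vena cava samples, 22 of the 66 genes could be tested and 0 were called, against 2.27% of all 11251 genes. The rule had capped the levels of the 66 genes in these samples, so the shares are a description. Before adjustment, 4 of the 22 (18.2%) had a p-value below 0.05, against 14.2% of all genes. Without the filter all 66 genes were tested, of which 0 were called and 20 had an unadjusted p-value below 0.05, against 1840 of all 15376 genes. With the samples numbered 1 left out, 38 passed the filter, 0 were called and 24 had an unadjusted p-value below 0.05, against 1128 of all 11253 genes. The genes tested in addition passed the filter once the samples numbered 1 were left out, so that this share is no support for a difference. In aorta 1, 38 of the 66 genes had no count, and in vena porta 1, 26 had none. Leaving out aorta 1 alone was not tried in this comparison. DESeq2's Wald test called 2 of the 22, and 752 of all 11251 genes. Within the aorta, the spread was wide for many of these genes, as aorta 1 was close to 0 where aorta 2 and 3 were not. For ENSCAFG00000020413 the 3 aorta samples ranged from 0 to 73.2 CPM, and the groups overlapped.

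The replicate numbers 1 to 3 recur in every vessel. The column names repeat 1 number for each across the vessels of a cell type, and the vessels came from 3 dogs, but the labels do not state what the number denotes. They also do not tie a number in CaPECs to the same number in VSMCs. In CaPECs of aorta and vena porta, with the vessel in the model, 39 of the 66 genes were tested for a difference between the numbers and 0 were called, against 0% of all 11641 genes. The rule had capped the levels of the 66 genes in these samples too, so the shares are a description. Before adjustment, 4 of the 39 (10.3%) had a p-value below 0.05, against 5.19% of all genes, and DESeq2 called 0 of the 39 and 90 of all 11641 genes. With 2 samples for each number, a small difference would not be detectable.

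In VSMCs, with the vessel in the model, 38 of the 66 genes were tested and 4 differed between the replicate numbers at an adjusted p-value below 0.05 (10.5%), against 6.23% of all 11776 genes. Before adjustment, 16 of the 38 (42.1%) had a p-value below 0.05, against 21.8% of all genes. The 4 genes are named because they were called, after their values were seen. ENSCAFG00000005243 had 60.1 ± 8.17 CPM in samples numbered 1, 24.8 ± 15.8 CPM in number 2, and 61.8 ± 8.28 CPM in number 3 (SD, n = 3 each; edgeR adjusted p = 0.0305). ENSCAFG00000018825 had 657.2 ± 96.8, 401.4 ± 59.9, and 688.3 ± 149.6 CPM in the same order (edgeR adjusted p = 0.0384). In both genes all samples numbered 2 lay below those numbered 1 and 3.

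ENSCAFG00000031382 had 170.0 ± 21.9, 121.5 ± 24.1, and 139.8 ± 9.72 CPM (edgeR adjusted p = 0.0376), with overlap between the numbers. It was also the gene whose level in the 2 cultures, 143.9 and 147.1 CPM, was closest, as a ratio, to its mean in VSMCs, 143.8 ± 27.2 CPM (SD, n = 9). ENSCAFG00000018218 had its highest mean in number 2, with 1.90 ± 1.21, 7.09 ± 5.30, and 1.16 ± 0.632 CPM (edgeR adjusted p = 0.0206), with overlap between numbers 1 and 2, and had 22.4 and 29.3 CPM in the cultures. Without the samples numbered 2, 0 of 38 selected genes were called, against 134 of all 11646 genes, and without number 3, 0 of 25 were called, against 140 of all 11543 genes. Without number 1, 9 of 31 were called, against 1044 of all 11577 genes. The 4 genes lost their call without number 2, with edgeR adjusted p-values of 0.514 to 0.926, and without number 3, with 0.0594 to 0.117. ENSCAFG00000031382 lost it without number 1 as well (edgeR adjusted p = 0.0678), and thus whichever number was left out. DESeq2's likelihood ratio test called 10 of the 38, and 1161 of all 11776 genes.

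The culture conditions alone, which 93 genes met, were also reversed. In 24 genes, the higher of the 2 cultures lay at least 4-fold below the lowest other CaPEC sample, which itself had at least 5 CPM. These genes were selected by their values in the same way and are a description.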

How the data were processed

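Libraries of polyadenylated RNA from 9 CaPEC and 9 VSMC samples were sequenced single-end. The authors aligned the reads to the dog genome CanFam3.1 with STAR 2.4.2a and deposited raw read counts per Ensembl gene from HTSeq-count 0.6.1p1 in union mode. The annotation release and the strand setting are not given in the sources used here, so antisense and overlapping genes are uncertain. Of the 24580 identifiers, 0 matched the RefSeq gene table at hand (43286 genes), and lists of marker symbols could not be used.

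Groups and replicate numbers came from the sample titles. Selection used CPM on the column totals. Tests used edgeR 4.0.16 in R 4.3.3 with TMM scaling and a minimum count of 10 in filterByExpr. Calls needed an adjusted p-value below 0.05 and, between vessels, an absolute log2 fold change above 0.4. DESeq2 1.42.0, its size factors, no filter, a replicate block, other selection limits, and leaving out each replicate number were alternatives. Named genes were the 2 with the largest fold over other CaPECs and the 2 with the highest and the 2 with the lowest VSMC level relative to the cultures, plus called genes. The members and lists were chosen with earlier results of these data known.

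In simulated counts with 200 genes changed by 2 on the log2 scale, 80.5% were recovered in the VSMC vessel comparison (11354 genes) and 71.5% in the CaPEC one (11061 genes). Among the calls, 4.73% and 7.14% were false. For the replicate number these shares were 83.5% and 5.65% in VSMCs (11597 genes) and 71.5% and 14.9% in CaPECs (11436 genes).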

Additional observations from a re-analysis of the deposited data

Results flagged for a closer look

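Of 20 sets of 9 VSMC or 6 aorta and vena porta CaPEC samples, 2 held a sample far from the others, where chance gives about 1. The sets covered the named genes other than ENSCAFG00000031497, and the summed level of the selected genes under 1 CPM in VSMCs. ENSCAFG00000018761 was at 4.32 CPM in the CaPECs of aorta 2, while the next highest of the aorta and vena porta CaPECs had 1.75 CPM. ENSCAFG00000018218 was at 13.0 CPM in the VSMCs of vena cava 2, while the next highest VSMC sample had 5.39 CPM.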

How the results depend on the processing

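With a minimum fold of 6 in place of 4, 43 genes met the selection rule, and both cultures lay above all VSMC samples in 38 of them. With a minimum of 2 CPM in place of 5, 62 of 89 genes had a mean VSMC level under 1 CPM. Under DESeq2, calls among all genes rose to 68 for the VSMC vessels, 752 for the CaPEC vessels, 1161 for the replicate number in VSMCs, and 90 for that in CaPECs. Among the selected genes, DESeq2 called 2, 2, 10, and 0 in the same order. Without a filter on low counts, 5 genes were called between the VSMC vessels, and 1197 genes, 11 of them selected, for the replicate number in VSMCs. The cause of these differences was not tested.

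The column names repeat a number across the vessels of a cell type, and the vessels came from 3 dogs, without stating that the number is the dog. Deviations from group means correlated between same-numbered samples at 0.093 to 0.522 in VSMCs and at -0.304 to 0.235 in CaPECs. A sample correlated best with its own number in 17 of 18 comparisons with another vessel in VSMCs and in 5 of 18 in CaPECs. With a replicate block in both vessel comparisons, 57 genes, 1 of them selected, were called between the VSMC vessels, against 1 and 0 without it. Between the CaPEC vessels 154 genes were called, 127 of them shared with the 255 called without it, and 0 selected genes in either fit.

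Leaving out each replicate number in turn gave 0 to 1 genes between the VSMC vessels, 11 to 116 between the CaPEC vessels, and 134 to 1044 for the replicate number in VSMCs, with 0 to 9 selected genes. The 11 came without number 1. For the 4 genes called by number, 9 of 24 alternative adjusted p-values from edgeR or DESeq2 were above 0.05, over a range of 5.42e-05 to 0.926. All 9 came from leaving out a number. Over all results, 85 alternative values stayed within 1.5 times the count or kept an adjusted p-value below 0.05. Another 26 counts moved beyond this, and 9 adjusted p-values rose above 0.05. Reversals of direction were not examined. Depth limits the genes near 0 in VSMCs, and 1 library per culture leaves the levels in the 2 high cultures without replicate error.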
